A study of Mus musculus and Rattus norvegicus with 37 samples.

Results

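The 10 genes described here are markers of hepatic stellate cells and of the myofibroblasts that form from them. They were chosen by name, as entries called Lrat, Reln, Rgs5, Hand2, Dcn, Acta2, Tagln, Pdgfrb, Ngfr or Des among 48440 entries of each mouse table and 32750 entries of each rat table, and each name occurred once in all 4 tables. The data are RNA-seq values of 37 livers, 21 from mice and 16 from rats, in 8 groups. The mice were female and of C57BL/6J background, and their livers were taken in the fed state on day 7 after 1 subcutaneous injection. LNA29, a mixture of oligonucleotides that block miR-29a-3p and miR-29bc-3p and were given at 20 mg/kg each, went to 8 WT/Floxed mice (4 WT and 4 floxed) and to 4 mice labelled L-Sirt1 KO, and saline went to 5 WT/Floxed mice (3 WT and 2 floxed) and to 4 mice labelled L-Sirt1 KO. Floxed and L-Sirt1 KO mice were littermates 15 to 20 weeks old. The age of the WT mice pooled with the floxed mice is not stated on its own. The ages given for C57BL/6J and floxed mice together run from 9 to 20 weeks, so that WT and floxed mice may differ in age. The driver of the liver-specific deletion is not given in the sources used here. The rats were male: 4 Zucker Fatty rats (ZFR, fa/fa, with a mutated leptin receptor) and 4 Zucker Lean rats (ZLR), all 5.5 months old, and 4 ZFR given BT2 at 20 mg/kg daily for 7 days and 4 ZFR given vehicle (dimethylsulfoxide), all 3 months old. BT2 is a small-molecule inhibitor of the kinase that shuts off breakdown of branched-chain amino acids.

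Stellate cells lie between the hepatocytes and the sinusoidal endothelium. In the healthy liver they are quiescent and hold vitamin A as retinyl esters in lipid droplets. On injury they lose these droplets, turn on contractile proteins, divide in response to platelet-derived growth factor and lay down collagen, and they are then called activated or myofibroblast-like. Smooth muscle cells of the hepatic vessels carry the same contractile proteins without any injury. Of the 10 genes, Lrat, Reln, Rgs5, Hand2 and Dcn were taken as the 5 quiescent-state or identity markers, and Acta2, Tagln, Pdgfrb, Ngfr and Des as the 5 activation markers. The split is one of usage. Pdgfrb, Ngfr and Des are also present in quiescent stellate cells, and Dcn is made by fibroblasts too.

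In these whole-liver values, fewer cells of a type and less RNA per cell cannot be told apart. Mouse libraries held an estimated 42.6 to 78 M reads, and rat libraries 0.188 to 58.5 M, so that 1 read was worth 0.746 to 1.37 normalized counts in mice and 0.0322 to 10.5 in rats. In the shallowest rat libraries (ZLR replicates 3 and 4 and ZFR vehicle replicate 4) a marker often rested on 0 to 3 reads. Each of the 4 tables was normalized on its own, so levels were compared only within a table. Sirt1, the deleted gene, had 535 to 617 normalized counts in the 8 livers labelled L-Sirt1 KO and 492.7 to 699 in the 13 WT/Floxed livers. These ranges come from tables normalized separately and were not compared. They are counts of the whole gene, exon counts were not analysed here, and the genotype used below is the one on the labels. The authors also measured hepatic Sirt1 in both genotypes by RT-qPCR. Hepatocyte markers summed to at least 4392780 normalized counts in each mouse library, and none of the markers of hepatocytes, Kupffer cells or sinusoidal endothelium was at a median of 0 in any table.

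LNA29 is aimed at miR-29a, miR-29b and miR-29c, whose mature strands share the same seed (bases 2 to 8, in capitals). The mature sequences are from RefSeq on GRCm38.p6. Mir29a lies at chr6:31062673-31062694 on the minus strand and Mir29c at chr1:195037600-195037621 on the plus strand, while the sequence of miR-29b is encoded both by Mir29b-1 at chr6:31063025-31063047 (minus) and by Mir29b-2 at chr1:195037091-195037113 (plus). They are shown because a gene's own match to their seed was recorded beside its response.

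mmu-miR-29a-3p: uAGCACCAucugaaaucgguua
mmu-miR-29b-3p: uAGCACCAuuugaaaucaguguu
mmu-miR-29c-3p: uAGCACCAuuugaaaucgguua

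The 7 bases complementary to this seed, TGGTGCT, were searched on the sense strand of the annotated 3′ UTRs of GENCODE vM21 (GRCm38). All 10 markers had an annotated 3′ UTR, and 1 of them, Pdgfrb, held a match, which began 1662 bases after the stop codon in a 3′ UTR of 1678 bases. Among the 13532 genes tested in WT/Floxed mice that had an annotated 3′ UTR, 2545 (18.8%) held such a match. No marker held the 8-base match, the same letters followed by an A, which 532 of these genes (3.93%) held. A match is a description of the letters and does not show that the miRNA binds there.

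The levels of the markers in the livers of saline-treated WT/Floxed mice were first set in order, as normalized counts per kb of the union of annotated exons (n = 5). Dcn, the small proteoglycan decorin that binds collagen fibrils, was highest at 1886 ± 219 (SD) per kb. Rgs5, a regulator of G protein signalling that marks pericytes, followed at 612 ± 128 per kb, and its range did not overlap that of Dcn or of the next gene. Lrat, the enzyme that esterifies retinol for storage, was at 230.2 ± 47.0 per kb, with Tagln, the actin-binding transgelin, at 209.8 ± 81.6 and Hand2, a mesenchymal transcription factor, at 177 ± 32.1 per kb. The last places were taken by Reln, the secreted glycoprotein reelin (127 ± 18.9 per kb), Pdgfrb, the receptor for platelet-derived growth factor B (107 ± 11.9), Ngfr, the low-affinity neurotrophin receptor (106 ± 8.72), Des, the intermediate filament desmin (92.9 ± 19.2), and Acta2, alpha smooth muscle actin (87.7 ± 64.3). From Lrat down to Acta2, each gene's range overlapped that of the next. The mean level of Acta2 per kb was thus the lowest of the 10 in the control livers, though within overlapping ranges. Its spread was the widest relative to its mean.

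Acta2 was also the most variable marker in each mouse group. Its coefficient of variation was 73.4% in WT/Floxed saline, 55.2% in WT/Floxed LNA29, 76.0% in L-Sirt1 KO saline and 131% in L-Sirt1 KO LNA29 livers. The median over the 10 markers was at most 19.3% in the same groups. The least variable markers were Ngfr (8.23%), Rgs5 (6.06%), Des (8.20%) and Dcn (6.21%) in these groups.

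**Figure D1:**
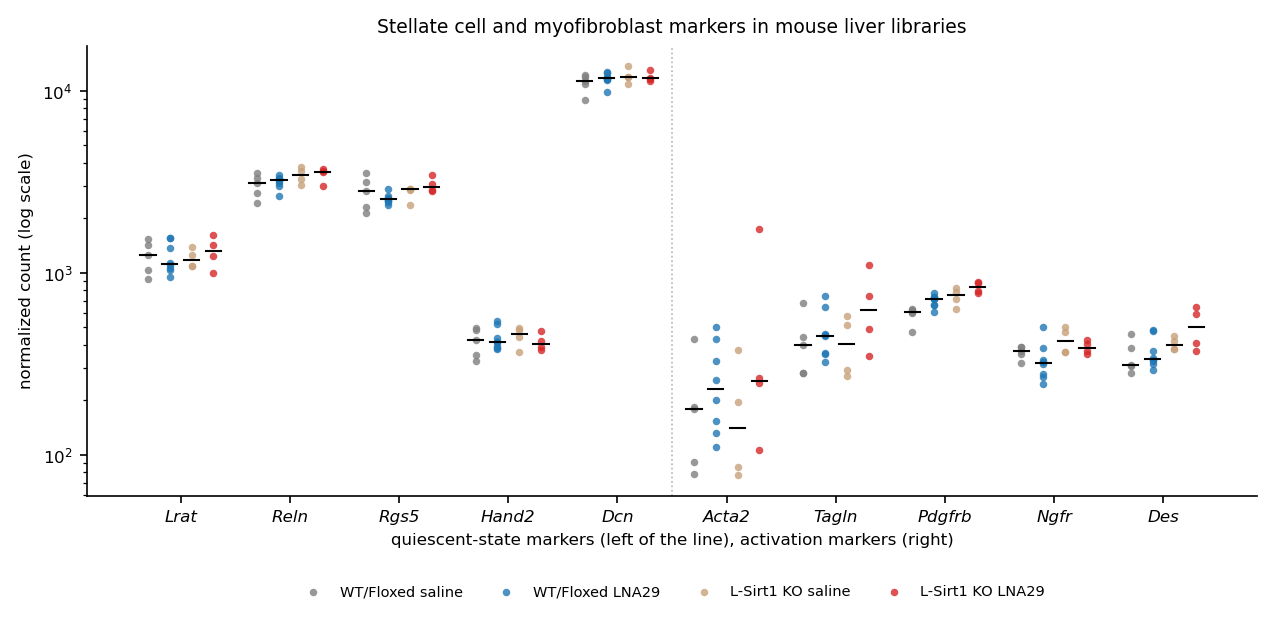
Normalized count (log scale) of each of the 10 markers in every mouse liver library, with 1 point per library, a bar at the group median and the 4 mouse groups side by side. Most markers keep within a narrow band in all groups, while Acta2 runs from 77.2 to 1732, the highest point being L-Sirt1 KO LNA29 replicate 3. WT/Floxed and L-Sirt1 KO livers come from tables normalized separately.

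LNA29-treated and saline-treated WT/Floxed livers were compared to ask whether inhibition of miR-29 over 7 days went with a shift from quiescent to activated stellate markers. None of the 10 markers passed the criteria used for mice (by limma a p under 0.05 and an adjusted p under 0.2, with a fold change above 1.2 in either direction and a mean above 50), which 4.35% of the 15811 genes tested passed. By limma 1 marker, Pdgfrb, had an unadjusted p under 0.05, as did 2105 of all genes tested. In none of the 10 were the LNA29 and saline ranges separate, against 1.51% of all genes tested.

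Pdgfrb, the growth factor receptor through which activated stellate cells are driven to divide, came nearest to the criteria. Its normalized counts were 605 at the lowest, 715 at the median and 775 at the highest in the 8 LNA29 livers, and in the 5 saline livers they were 472, 634, 609.9, 619.8 and 596. The LNA29 livers lay above the saline livers except that the lowest of them, replicate 3 at 605, lay within the saline range, and saline replicate 1 at 472 stood below all others. The log2 fold change was 0.26 ± 0.09 (SE, adjusted p = 0.187 by limma with Benjamini-Hochberg adjustment). The fold change lay just under the limit of 1.2, so that the gene was left out by the fold criterion alone. By the exact permutation test over the 1287 splits of these livers, two-sided, p was 0.00389. Within the 3 flow cells the difference was 0.21, 0.32 and 0.24 on the log2 scale, and it was 0.38 in WT mice (n = 4 and 3) and 0.12 in floxed mice (n = 4 and 2). Without saline replicate 1 it fell to 0.19 (adjusted p = 0.390).

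Acta2 and Tagln, the contractile markers, had higher group means with LNA29 but overlapped widely. Acta2 was at 110.2, 228 and 505 (lowest, median and highest) in LNA29 livers and at 184, 91.6, 179, 429.8 and 78.3 in saline livers. Tagln was at 322, 449 and 744 in LNA29 livers and at 441, 282, 403, 678 and 282 in saline livers. For both genes saline replicate 4 lay near the top of the LNA29 range. The log2 fold changes were 0.54 ± 0.43 for Acta2 (adjusted p = 0.665, limma) and 0.21 ± 0.23 for Tagln (adjusted p = 0.777, limma). The 95% interval for Acta2 ran from -0.39 to 1.46, so that a fall and a rise both lie within it. In WT mice alone the Acta2 difference was -0.10, and in floxed mice alone 1.47 on the log2 scale, and within the 3 flow cells it was 0.33, 0.90 and 0.28.

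Des and Ngfr complete the activation markers, and their differences were smaller. Des was at 291, 335 and 485 in LNA29 livers and between 282 and 459 in saline livers, a log2 fold change of 0.07 ± 0.15 (adjusted p = 0.889, limma). Ngfr was at 244, 319 and 504 in LNA29 livers and between 318 and 390.2 in saline livers, a log2 fold change of -0.17 ± 0.15 (adjusted p = 0.696, limma). The saline values of Ngfr fell within the LNA29 range.

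The quiescent markers differed little between treatments. Lrat was at 949, 1121 and 1549 in LNA29 livers and at 1523, 1254, 1039, 1419 and 924 in saline livers, with a log2 fold change of -0.01 ± 0.15 (95% interval -0.33 to 0.30). Dcn was at 9846, 11667 and 12671 in LNA29 livers and between 8907 and 12128 in saline livers, a log2 fold change of 0.09 ± 0.08 (interval -0.09 to 0.26). Reln, Rgs5 and Hand2 had log2 fold changes of 0.07, -0.10 and 0.08. For the 5 quiescent markers every 95% interval lay within -0.34 and 0.35, which is narrower than that of Acta2 or Tagln. Rgs5 spanned 2131 to 3532 in saline livers and 2359.6 to 2872 in LNA29 livers. Over all 10 markers the median log2 fold change was 0.08, and over all genes tested it was 0.00.

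In livers labelled L-Sirt1 KO the same comparison of LNA29 (n = 4) with saline (n = 4) again called none of the 10 markers, against 1.87% of the 15885 genes tested, and limma gave none of them an unadjusted p under 0.05, against 1779 of all genes. No marker had separate ranges, against 6.95% of all genes tested. The exact permutation test cannot go below p = 0.0286 at 4 against 4 livers.

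Acta2 was at 247, 264, 1732 and 106 normalized counts in the 4 LNA29 livers and at 196, 77.2, 377 and 85.1 in the 4 saline livers. LNA29 replicate 3 stood far above the rest, and the other 7 livers overlapped. The log2 fold change of 1.15 ± 0.80 (adjusted p = 0.641, limma) became 0.35 ± 0.56 without that liver (adjusted p = 0.886). Within the 3 flow cells, which held 2 or 3 of these livers each, it was 4.47, 0.38 and -0.76. Tagln was at 491, 748, 1104 and 349.5 with LNA29 and at 518, 272, 581 and 293 with saline, and the liver that was highest in Acta2 was highest here too. Its log2 fold change was 0.64 ± 0.37 (adjusted p = 0.565, limma) and 0.36 without that liver. Des was at 594, 373, 648 and 408 with LNA29 and at 423, 379, 446 and 378 with saline, with a log2 fold change of 0.28 ± 0.18 (adjusted p = 0.619, limma).

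Pdgfrb was at 794, 881, 773 and 884 with LNA29 and at 780.3, 719, 627 and 823 with saline. The groups overlapped, and the log2 fold change of 0.18 ± 0.11 (adjusted p = 0.586, limma) had the same sign as in WT/Floxed livers. Within the 3 flow cells the Pdgfrb difference was 0.10, 0.10 and 0.30 on the log2 scale. Ngfr had a log2 fold change of -0.12 ± 0.14. The quiescent markers Lrat (0.11), Reln (0.02), Rgs5 (0.15), Hand2 (-0.10) and Dcn (-0.02) had log2 fold changes no further from 0 than 0.15.

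An interaction term asked whether the response differed between the 2 genotypes, over 15601 genes, of which 0.0449% were called at an adjusted p under 0.2. None of the 10 markers was among them. The difference (L-Sirt1 KO response minus WT/Floxed response) was -0.08 ± 0.14 for Pdgfrb, 0.61 ± 0.90 for Acta2 and 0.25 ± 0.16 for Rgs5 on the log2 scale, and the lowest adjusted p among the 10 was 0.659 (Rgs5, limma).

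**Figure D2:**
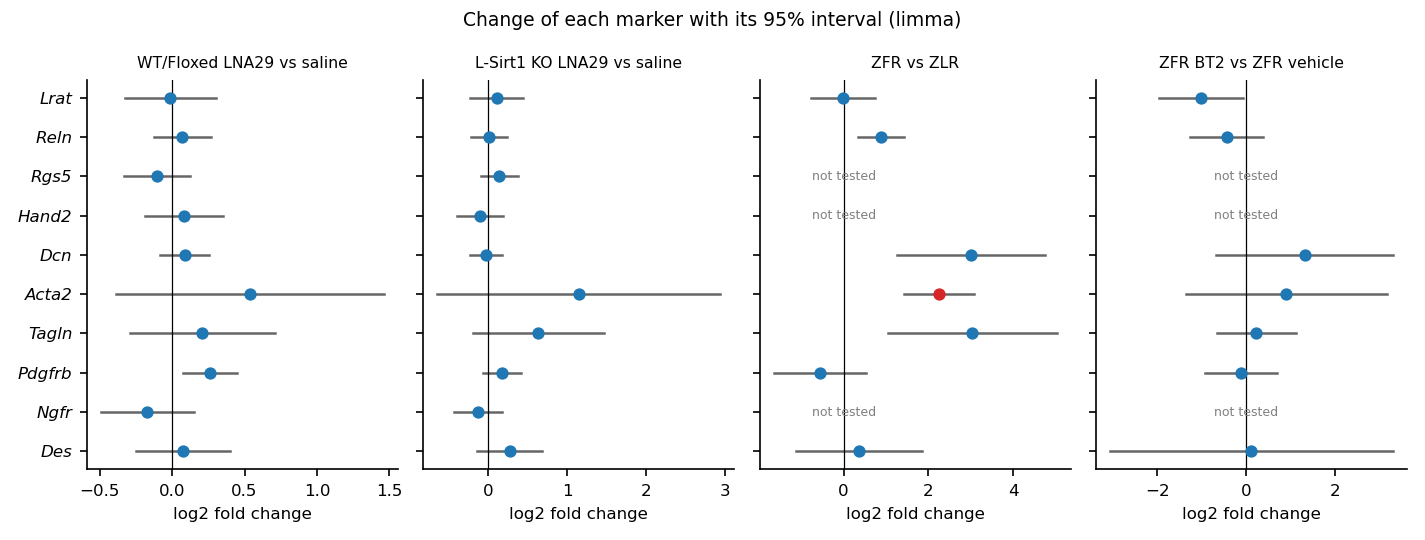
Log2 fold change (point) and 95% interval (line) of each marker by limma in the 4 comparisons, with an own horizontal scale for each panel and a red point where the gene was called. Acta2 is called in ZFR against ZLR and no marker in the other comparisons, and in both mouse comparisons its interval is the widest of the 10. Rgs5, Hand2 and Ngfr were below the minimum mean count in both rat tables.

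Contractile and fibroblast genes that are not among the 10 were set beside these values. Of 10 smooth muscle contractile genes none was called in either genotype. Their log2 fold changes were positive for 8 of 10 in WT/Floxed and 10 of 10 in L-Sirt1 KO livers, with medians of 0.20 and 0.59. Over all genes tested 7983 of 15811 and 7866 of 15885 were positive. Genes of this list need not vary independently, and no value without L-Sirt1 KO LNA29 replicate 3, highest in Acta2, was computed for the list. The member furthest from 0 was Cnn1, basic calponin, at 0.81 ± 0.67 and 1.25 ± 1.15. Of 9 activated fibroblast genes present 8 were tested and none was called, the member furthest from 0 being Lox, which cross-links collagen (0.59 ± 0.24 in WT/Floxed and 0.88 ± 0.33 in L-Sirt1 KO livers, adjusted p = 0.306 and 0.357). Of 6 portal fibroblast genes 5 were tested and none was called. Fbln2 was furthest from 0 in WT/Floxed livers (0.20 ± 0.21) and Mfap4 in L-Sirt1 KO livers (0.58 ± 0.48).

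Markers of neighbouring cell types moved in part with treatment. Lyve1, a receptor of sinusoidal endothelium, fell with LNA29 by 0.51 (adjusted p = 0.165) in WT/Floxed and by 1.17 (adjusted p = 0.115, limma) on the log2 scale in L-Sirt1 KO livers. It was the 1 called gene of 7 endothelial genes, whose summed count was 9721 to 16351 with LNA29 and 12087 to 16582 with saline in WT/Floxed livers. Of 7 Kupffer cell genes only Marco had a positive log2 fold change in either genotype, and the medians were -0.37 in WT/Floxed and -0.29 in L-Sirt1 KO livers. None was called in WT/Floxed livers (Adgre1 was furthest from 0, at -0.59 ± 0.48). In L-Sirt1 KO livers, where 1.87% of all genes tested were called, Clec4f (-0.29) and Vsig4 (-0.54) fell and Marco was furthest from 0 (0.71 ± 0.43). Summed Kupffer cell counts were 6493 to 33053 with LNA29 and 11663 to 19150 with saline in WT/Floxed livers. They were 11296 to 14382 and 14246 to 16719 in L-Sirt1 KO livers. The hepatocyte gene Apoa1 rose by 0.51 in WT/Floxed livers (adjusted p = 0.031, limma), and Cps1 was furthest from 0 in L-Sirt1 KO livers (0.60 ± 0.21). None of the 4 cholangiocyte and 4 mesothelial genes was called: Krt7 was at 0.54 ± 0.38 and -0.44 ± 0.31, Wt1 at 0.34 ± 0.47 in WT/Floxed livers and Msln at -0.36 ± 0.47 in L-Sirt1 KO livers. The part of these cell types in the values of the 10 markers was not tested.

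The variation of Acta2 from liver to liver was shared by Tagln. Over the 13 WT/Floxed libraries, after each treatment group's mean was subtracted, the log2 values of Acta2 and Tagln had r = 0.938 and rho = 0.907 (permutation p = 0.00015 and 0.00021, two-sided, 100000 permutations within treatment groups, and 0.00675 and 0.00945 after adjustment over 45 pairs, n = 13), the highest r among all pairs that the 10 markers form. Leaving out the 2 libraries furthest from the Acta2 median gave r = 0.902. Within the 7 WT libraries r was 0.948, within the 6 floxed libraries 0.940, and in the 8 L-Sirt1 KO libraries 0.934. A flow cell held too few libraries for a value of its own. The median r was 0.129 over the 10 pairs of activation markers, 0.131 over the 10 pairs of quiescent markers and 0.106 over the 25 mixed pairs. Acta2 and Des had r = 0.611 and rho = 0.747 (permutation p = 0.0408 and 0.00791, adjusted p = 0.45 and 0.178, n = 13), with r = 0.555 without the 2 libraries furthest from the Acta2 median. Within the WT, floxed and L-Sirt1 KO libraries r of Acta2 and Des was 0.361, 0.942 and 0.721. Tagln and Des had r = 0.519 over the 13 libraries and 0.898 within the floxed ones. Reln and Dcn had r = 0.826 over the same 13 libraries (rho = 0.637, permutation p = 0.00479 and adjusted p = 0.108 for r), but r = 0.408 without the 2 libraries furthest from the Reln median and 0.0688 in the L-Sirt1 KO libraries.

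**Figure D3:**
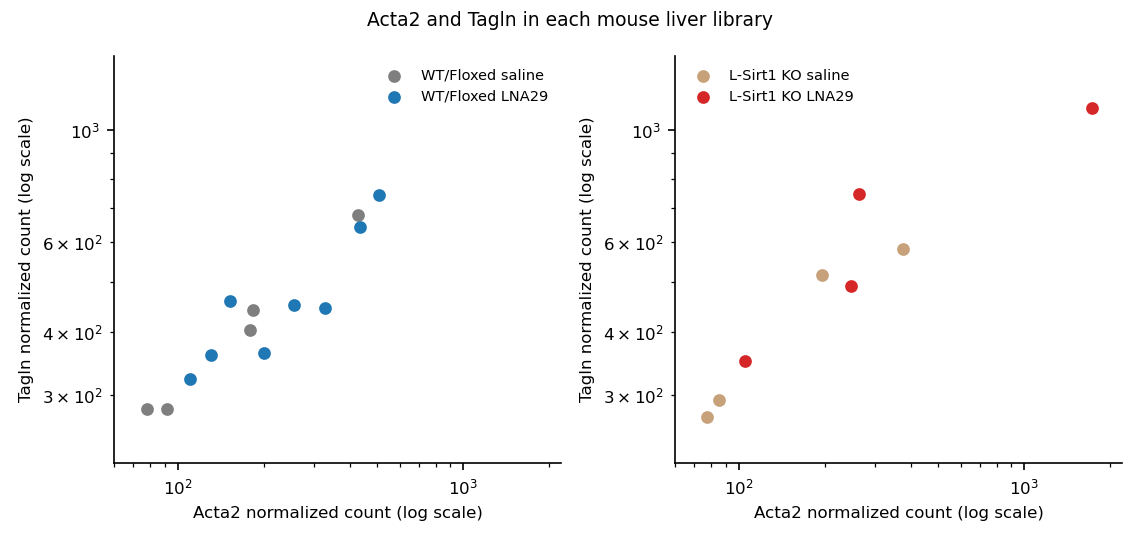
Acta2 against Tagln as normalized counts (both axes on a log scale), with 1 point per mouse liver library, WT/Floxed on the left and L-Sirt1 KO on the right. The points of both treatments lie along the same rising band, and the rightmost point, Acta2 1732 and Tagln 1104, is L-Sirt1 KO LNA29 replicate 3.

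By the same measure the genes most like Acta2 among 12875 with a mean of at least 50 were Myh11, the smooth muscle myosin heavy chain (r = 0.951), Tagln (0.938), Ppp1ccb (0.929), Col6a2, a chain of collagen VI (0.907), and Slc31a1, a copper transporter (0.886). In the 8 L-Sirt1 KO libraries Myh11 (0.955) and Tagln (0.934) had a like r, while Col6a2 had 0.489, Slc31a1 0.0945 and Ppp1ccb -0.443. The genes most like Lrat were Cyp26b1, which hydroxylates retinoic acid (r = 0.920), Nr1i2, the pregnane X receptor (0.869), Slc35g1 (0.851), Rab4a (0.840) and H2afy2 (0.795). In the L-Sirt1 KO libraries r was 0.961 for Cyp26b1, 0.692 for Nr1i2, 0.427 for Slc35g1, 0.0356 for Rab4a and -0.173 for H2afy2. These are the highest of many values, all libraries of a table share its normalization, and no p is given for them. Acta2 and Lrat had r = 0.350 with each other.

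ZFR and ZLR livers were compared to ask how the markers stand in an obese, leptin receptor-deficient rat liver. Acta2 was called higher in ZFR. It was 1 of 7 markers tested, and 4.25% of the 8633 genes tested were called. Those called higher in ZFR were 1.80% of the genes tested. Rgs5, Hand2 and Ngfr were below the minimum mean of 10 normalized counts and were compared by the exact permutation test alone. By limma 4 of the 7 tested markers had an unadjusted p under 0.05, as did 1429 of all genes. The ZFR and ZLR ranges were separate for 4 of the 7, Acta2, Tagln, Dcn and Reln, and for the untested Rgs5, all higher in ZFR. They were separate for 14.5% of all genes tested. For each of these 5 the exact two-sided permutation p was 0.0286, the smallest that 4 against 4 allows.

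Acta2 was at 57.2, 58.8, 39.7 and 56.0 normalized counts in ZFR and at 7.85, 6.17, 21.1 and 10.4 in ZLR. All ZFR livers lay above all ZLR livers. The log2 fold change was 2.24 ± 0.37 (adjusted p = 0.008, limma), a fold of 4.74. The 2 ZLR livers at 21.1 and 10.4 are the shallow ones, where the values stand for about 2 reads and 1 read, while the values of 7.85 and 6.17 rest on about 205 and 143 reads, and that of ZFR replicate 1 on about 1779. Without the libraries under 1 M reads the log2 fold change was 2.87 ± 0.18 (adjusted p = 4.9e-04, limma). That refit, also used for Tagln and Dcn below, kept ZFR replicates 1, 2 and 4 and ZLR replicates 1 and 2. Both ZLR libraries in it are of the same flow cell. Within the 2 flow cells it was 2.89 and 1.60.

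Tagln was at 73.1, 82.8, 73.3 and 59.1 in ZFR and at 13.9, 11.7, 31.3 and 0 in ZLR. The groups were separate, with a log2 fold change of 3.04 ± 0.89 that missed the limit (adjusted p = 0.102, limma). The 0 stands in a library where 3 reads would be 31.3 normalized counts, and leaving that library out gave 1.99 ± 0.32 (adjusted p = 0.011). Without the libraries under 1 M reads it was 2.39 ± 0.20 (adjusted p = 9.97e-04). Tagln differed by 2.52 and 3.55 within the flow cells.

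Dcn was at 30.7, 70.6, 58.5 and 48.2 in ZFR and at 11.95, 9.76, 10.5 and 0 in ZLR. The groups were separate here too, but the ZLR values of 10.5 and 0 rest on about 1 and 0 reads. In those libraries 3 reads would be 31.6 and 31.3 normalized counts, above the lowest ZFR value, so that the separation is not firm. The log2 fold change of 3.00 ± 0.78 (adjusted p = 0.067, limma) became 2.12 ± 0.29 without the ZLR library at 0 (adjusted p = 0.007) and 2.03 ± 0.33 without the libraries under 1 M reads (adjusted p = 0.018). Dcn was counted as a quiescent or identity marker. In the libraries of at least 1 M reads it passed the test in the same direction as Acta2 and Tagln. That test had ZLR replicates 1 and 2 alone on the lean side. Within the flow cells its difference was 2.01 and 3.99.

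Reln was at 53.6, 82.8, 51.8 and 63.2 in ZFR and at 34.4, 36.8, 22.3 and 41.4 in ZLR. The log2 fold change of 0.89 ± 0.24 missed the limit (adjusted p = 0.083, limma), and it was 0.89 within each flow cell, though the ZLR values of 22.3 and 41.4 in the second flow cell rest on about 2 and 4 reads. Rgs5 was at 14.3, 28.3, 7.04 and 14.4 in ZFR and at 5.96, 5.99, 0 and 0 in ZLR. Both zeros are in libraries where 3 reads would be over 31 normalized counts, and the 2 deep ZLR libraries had about 155 and 139 reads. The lowest ZFR value, 7.04 in replicate 3, rests on about 3 reads, so that the separation of the groups in Rgs5 is not firm.

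The remaining markers did not separate the groups. Lrat was at 52.3, 45.5, 62.2 and 60.7 in ZFR and at 56.7, 62.4, 26.7 and 97.7 in ZLR, a log2 fold change of -0.01 ± 0.34 (95% interval -0.77 to 0.75). In the deep libraries, where ZFR replicate 1 and ZLR replicates 1 and 2 had 1627, 1480 and 1445 reads, Lrat was 52.3, 56.7 and 62.4. Pdgfrb was at 29.01, 23.9, 8.09 and 49.7 in ZFR and at 26.3, 26.5, 51.0 and 40.4 in ZLR, a log2 fold change of -0.56 ± 0.49 (adjusted p = 0.589, limma). Des had 6.27 to 38.8 in ZFR and 3.93 to 19.2 in ZLR (log2 fold change 0.37 ± 0.66). Hand2 and Ngfr were at 0 to 4.71 and 0.354 to 2.09 in ZFR, and in the deep ZLR libraries at 3.76 and 2.98 and at 0.575 and 0.648. Thus Acta2, Tagln, Dcn and Reln had higher values in all ZFR libraries than in any ZLR library, as did Rgs5. In ZLR replicates 3 and 4 the values of all these genes rest on 0 to 4 reads, and Rgs5 was thin in ZFR replicate 3 too. The storage enzyme Lrat and the receptor Pdgfrb were not detectably different at this depth.

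**Figure D4:**
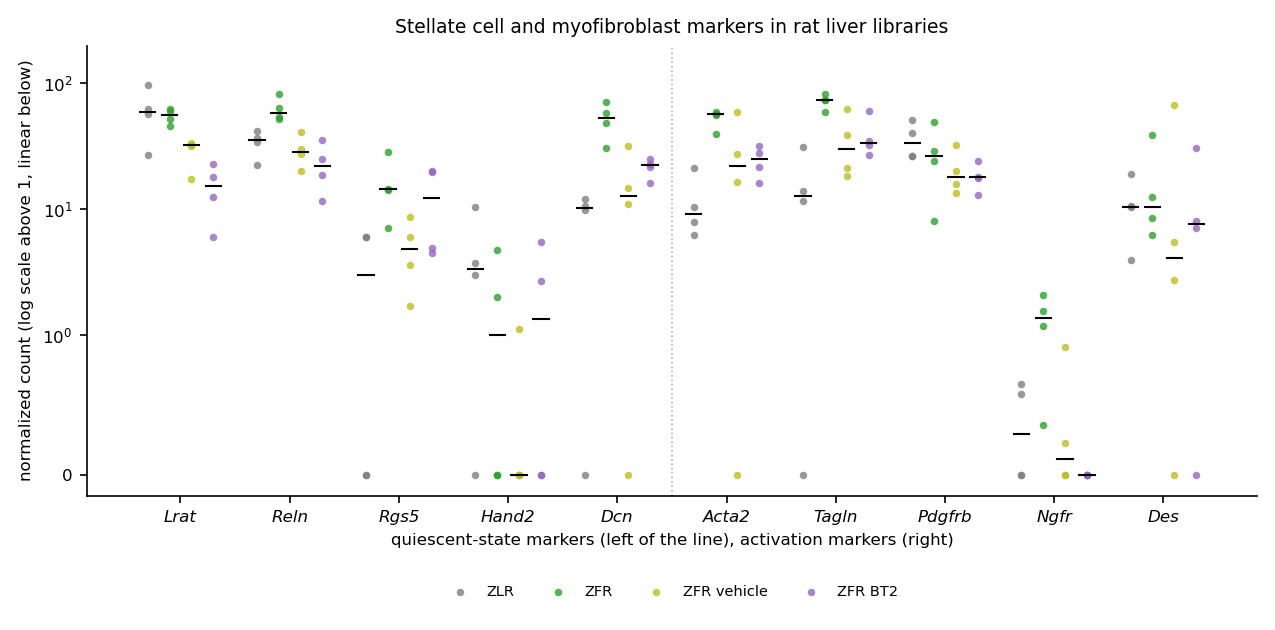
Normalized count of each marker in every rat liver library (log scale above 1, linear below), with 1 point per library and a bar at the group median. The 4 ZFR points lie above the 4 ZLR points for Reln, Rgs5, Dcn, Acta2 and Tagln, and points at 0 come mostly from the shallow libraries. ZLR and ZFR share 1 table, and ZFR vehicle and ZFR BT2 another.

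The other genes of these cell types were mixed in ZFR against ZLR. Of 12 other stellate identity genes 8 were tested and 1 was called, Adamtsl2, a secreted matrix protein (log2 fold change 1.83 ± 0.41, adjusted p = 0.036, limma). Of the activated fibroblast genes 5 were tested. Ctgf, a matricellular growth factor (2.42 ± 0.34), and Vim, the mesenchymal intermediate filament vimentin (1.40 ± 0.27), rose, while Fn1, fibronectin, which hepatocytes also make, fell by 0.38 (adjusted p = 0.048). Of 10 smooth muscle contractile genes 6 were tested and none was called. Myl9 was furthest from 0 at -0.26 ± 0.34. Myh11 had a log2 fold change of 0.14 ± 0.64 (95% interval -1.29 to 1.56), so that a fall and a rise both lie within it. The summed count of the list was 798 to 969 in ZFR and 940.1 to 1089 in ZLR. Most of this sum came from Cald1 and Mylk (means of 611 and 200). Cald1 was lower in ZFR with separate ranges (-0.25 ± 0.09), and Mylk was at 0.11 ± 0.30. None of the 5 portal fibroblast genes present and none of the 4 mesothelial genes reached the minimum count, with sums of 2.75 to 11.2 and 2.09 to 21.2 in ZFR and of 0 to 4.58 and 6.22 to 20.9 in ZLR, and Thy1, Gli1 and Wt1 had a median of 0. The part of these cells in the values of Acta2, Tagln and Dcn was not tested.

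Single genes of other liver cell types differed as well. Stab2, a scavenger receptor of sinusoidal endothelium, rose in ZFR (log2 fold change 1.16 ± 0.25, adjusted p = 0.033, limma), as the 1 called gene of 6 tested. Of 7 Kupffer cell genes none was called, with Marco furthest from 0 (2.10 ± 0.54, adjusted p = 0.066). Of 6 hepatocyte genes Tf rose by 0.44, and Cps1 and Ttr fell by 0.58 and 0.43. Of 4 cholangiocyte genes 2 were tested and none was called, with Epcam furthest from 0 (0.85 ± 0.33). Summed Kupffer cell counts were 520.2 to 859 in ZFR and 531 to 689 in ZLR, and summed endothelial counts 406 to 578 and 445 to 585.

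BT2-treated and vehicle-treated ZFR were compared to ask whether the treatment changed the markers in obese rats. No marker was called, and 0% of the 8405 genes tested were called by limma at an adjusted p under 0.05. At an unadjusted p under 0.05 there were 332 genes, 1 of them a marker, Lrat. No marker had separate ranges, against 2.96% of all genes tested.

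Lrat was at 6.02, 18.1, 12.5 and 23.0 in BT2 livers and at 33.4, 32.6, 31.5 and 17.5 in vehicle livers. Each BT2 value lay below each vehicle value except that of vehicle replicate 4, which rests on about 2 reads. The log2 fold change was -1.0 ± 0.43 (adjusted p = 0.898, limma), and the exact two-sided permutation p was 0.0857. Without the libraries under 1 M reads it was -1.06 ± 0.25 (adjusted p = 0.998, limma), and within the flow cells -1.56 and -0.45. The refit by depth kept BT2 replicates 2 and 3 and vehicle replicates 1, 2 and 3. The 2 lowest-depth BT2 values, 6.02 and 23.0, rest on about 2 and 4 reads.

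Acta2 was at 32.03, 28.0, 16.1 and 21.8 in BT2 livers and at 27.4, 59.5, 16.5 and 0 in vehicle livers, where the 0 allows up to 31.0 normalized counts. The BT2 values lay within the vehicle range (log2 fold change 0.91 ± 1.02). Dcn was at 24.9, 16.0, 22.8 and 21.8 in BT2 livers and at 14.6, 31.6, 11.001 and 0 in vehicle livers, a log2 fold change of 1.32 ± 0.90 (adjusted p = 0.898, limma). Tagln was at 60.5, 35.0, 27.1 and 32.3 with BT2 and at 38.8, 62.4, 18.3 and 21.2 with vehicle (log2 fold change 0.23 ± 0.40). Without the libraries under 1 M reads the differences were -0.48 for Acta2, 0.14 for Dcn and -0.20 for Tagln. Reln, Pdgfrb and Des had log2 fold changes of -0.43, -0.11 and 0.12, each with a 95% interval that held 0. Rgs5 was at 4.51 to 20.1 with BT2 and at 1.70 to 8.70 with vehicle (exact permutation p = 0.2). Ngfr was at 0 in all 4 BT2 livers, which allows between 4.00 and 16.3 normalized counts, and Hand2 was at 0 to 5.44. No list of other cell types held a called gene, and no portal fibroblast or mesothelial gene reached the minimum count. The members furthest from 0 were Adamtsl2 (1.18), Myl9 (1.08), Pdgfra (-1.17), Apoa1 (0.30), Marco (-0.51), Fcgr2b (0.30) and Epcam (0.65), all with an adjusted p of 0.898 by limma.

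Activation and quiescent markers were set against each other in each liver as the mean log2(normalized count + 1) of the 5 activation markers minus that of the 5 quiescent ones. The difference was -2.49 ± 0.25 (SD, n = 8) in WT/Floxed LNA29 and -2.65 ± 0.32 (n = 5) in saline livers, and -2.20 ± 0.52 and -2.59 ± 0.22 (n = 4 each) in L-Sirt1 KO livers. In rats it was -0.19 ± 0.27 in ZFR and -0.27 ± 0.98 in ZLR, and -0.09 ± 0.74 with BT2 and 0.09 ± 0.64 with vehicle (n = 4 each). The groups overlapped in every comparison, and no test was made, since the markers were chosen with results known. With Acta2 and Tagln set against Lrat and Reln alone, ZFR had 0.07 ± 0.19 and ZLR -2.13 ± 1.77, the 2 deep ZLR livers being at -1.97 and -2.36. ZLR replicate 3, with 2 to 3 reads for each of these genes, was at 0.07 and overlapped ZFR. ZLR replicate 4, the lowest at -4.26, was as shallow, with about 1 read of Acta2 and 0 of Tagln. On the quiescent side of the score over 10 markers Dcn, Rgs5 and Reln were also higher in ZFR, as Acta2 and Tagln were on the activation side.

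**Figure D5:**
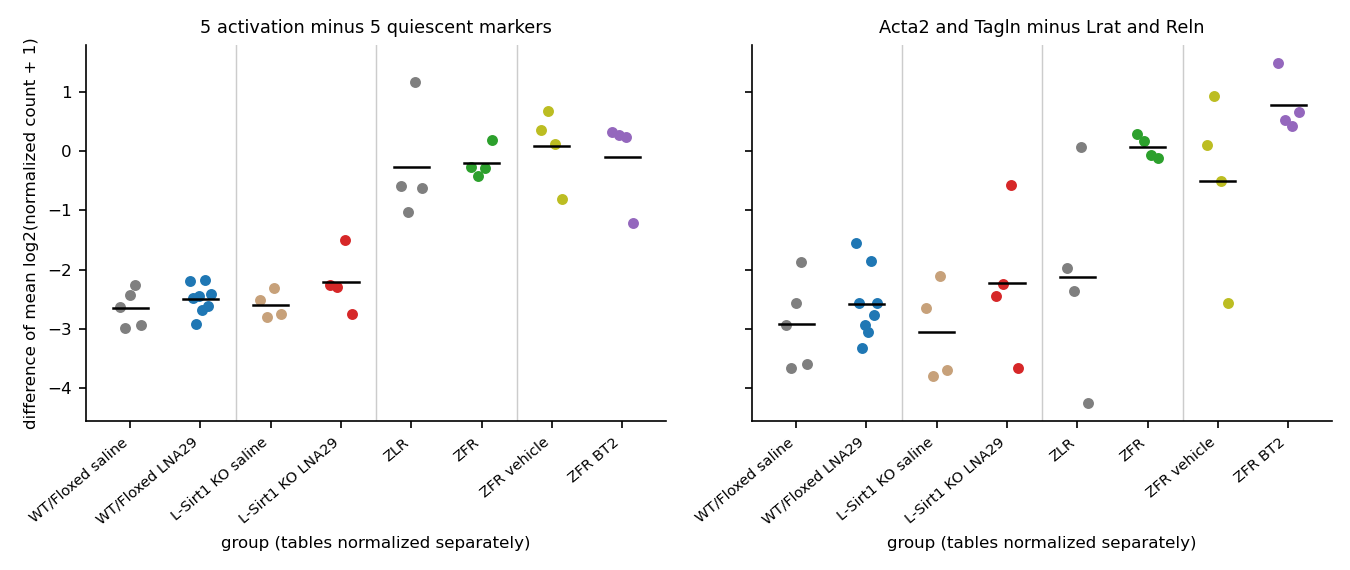
Difference between mean log2(normalized count + 1) of activation and quiescent markers in every liver, over all 10 markers (left) and over Acta2, Tagln, Lrat and Reln (right), with 1 point per library and a bar at the group mean. On the left the groups of each pair overlap. On the right 3 of 4 ZLR livers lie at -1.97 or below and the 4 ZFR livers between -0.11 and 0.28. The lowest and the highest ZLR point there come from the shallow ZLR libraries.

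The genomic setting of the markers was recorded beside their counts. Acta2 lies at chr19:34241090-34255590 on the minus strand of GRCm38 (GENCODE vM21) and Dcn at chr10:97479609-97518143 on the plus strand, and no other annotated gene overlaps either. Tagln at chr9:45929619-45936058 (minus) overlaps Pcsk7 and Gm48529 on the plus strand. Lrat (chr3:82892579-82903973, minus) overlaps Rbm46os, Hand2 (chr8:57320983-57324633, plus) overlaps Hand2os1, and Des (chr1:75360329-75368579, plus) overlaps Gm15179, each on the opposite strand, and Reln (chr5:21884454-22344702, minus) overlaps 7 small genes or pseudogenes. Whether counting used strand is not given in the sources used here, and how much of each overlap lies in exons is not shown. Whether reads of these overlapping genes entered the marker counts was not tested. No rat annotation was used here.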

How the data were processed

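RNA-seq libraries of mouse and rat liver were prepared by the authors with a polyA+ kit, aligned with STAR to mm10 or rn6 and quantified with Salmon, as their methods and processing notes state. The deposited values are a signal, namely gene counts that the authors divided by DESeq2 size factors, each of the 4 tables on its own. All columns were matched to samples by their titles (0 unmatched).

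The markers and the lists of other cell types were chosen with earlier results of these data known. Whole reads could not be recovered (70.1% to 90.5% of low values per library lay within 0.02 of a whole number of reads), so count models were not run. Depth was estimated as the summed signal divided by the most frequent value above 0, and floors of 3 reads cover counting error only. Entries with no name (381 in mice, 201 in rats) or a repeated name (130 and 4523) were left out. Genes with a mean of at least 10 were tested with limma 3.58.1 (trend) in R 4.3.3 on log2(normalized count + 1). Benjamini-Hochberg adjustment was over all genes tested. The added 1 draws fold changes of low genes towards 0 where libraries are deep. In shallow rat libraries, where 1 read was worth up to 10.5 normalized counts, a 0 can instead enlarge them. Mouse calls needed p under 0.05, adjusted p under 0.2, a fold change above 1.2 in either direction and a mean above 50, and rat calls an adjusted p under 0.05. Single markers were compared by two-sided exact permutation tests (40 in all, on the same log2 scale) in Python 3.11.15 with numpy 2.4.6 and scipy 1.17.1. The scripts were tested on simulated data. Figures were drawn with matplotlib 3.10.9. The methods call replicates biological and the sample names give animals, but pooling is not stated, so p-values measure the spread between these libraries. The authors left a floxed saline library out of their table as an outlier.

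Named are all 10 markers, the gene of each other list furthest from 0 and any called in that comparison, and for Acta2 and Lrat the 5 genes of highest r. Myh11, Cald1 and Mylk in rats, Sirt1, and the genes at a median of 0 were named after their values were seen. Other settings tried were no minimum mean, a pseudocount of 10, TMM scaling (trims of 0.3 and 0.05), sample quality weights, flow cell, background or replicate number as a covariate, entries of 1 name summed, other adjusted p limits, WT or floxed mice alone, libraries of at least 1 M reads, each library left out in turn, a score over 4 genes and an 8-base seed match. Values within flow cells were added after the data were seen. The result of 1 gene list in mice is not reported here.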

Additional observations from a re-analysis of the deposited data

Results flagged for a closer look

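In 8 of the 80 sets of values that 10 markers form in 8 groups, the highest or lowest library stood apart from the others by Dixon's test at the 95% level, which chance alone does in about 1 set in 20. Acta2 in L-Sirt1 KO LNA29 replicate 3 was 1732 normalized counts, and the other 3 livers had 106 to 264. Rgs5 in L-Sirt1 KO saline replicate 4 was 2340.0, and the others had 2859 to 2890.0. Dcn in WT/Floxed LNA29 replicate 4 was 9846, against 11470.0 to 12670.0 in the other 7. Pdgfrb in WT/Floxed saline replicate 1 was 472, against 596 to 634. The Pdgfrb difference, which came nearest to the criteria in mice but was not called, rests partly on it.

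In rats, Acta2 in ZFR replicate 3 was 39.7 (others 56.0 to 58.8) and Lrat in ZFR vehicle replicate 4 was 17.5, about 2 reads (others 31.5 to 33.4). Des in ZFR vehicle replicate 2, the deepest library of its table, was 67.4 (others 0 to 5.48), and Hand2 there was 1.12, where the others were at 0. Where all other values are 0, any value above 0 passes this test.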

How the results depend on the processing

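The 1 call among the markers, Acta2 in ZFR against ZLR, held under every alternative run, with log2 fold changes of 1.59 to 2.87. The number of markers called there was 3 with a pseudocount of 10 or without libraries under 1 M reads, 4 with sample quality weights or at an adjusted p under 0.2, and 1 to 3 with 1 library left out (2 without ZLR replicate 3, 3 without ZLR replicate 4). Those added were Dcn and Tagln, and Reln for the settings with 4. In WT/Floxed mice 1 marker, Pdgfrb, was called with TMM scaling, with sample quality weights or with background as a covariate, and 0 to 1 with 1 library left out (1 without LNA29 replicate 3). No alternative called a marker in L-Sirt1 KO mice, under BT2 or in the difference between genotypes. Over all refits of the single markers, called or not, the sign changed in 17 of 240 in WT/Floxed mice, 9 of 160 in L-Sirt1 KO mice, 7 of 119 in ZFR against ZLR, 14 of 118 under BT2 and 5 of 20 for the difference between genotypes.

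All genes called in WT/Floxed mice numbered 688, and 396 with no minimum mean, 1308 with quality weights, 206 at an adjusted p under 0.05, 88 in WT mice alone and 381 to 1006 with 1 library left out. In L-Sirt1 KO mice they numbered 297, and 160, 804 and 37 under the first 3 of these settings, 103 with flow cell as a covariate and 77 to 426 with 1 library left out. In ZFR against ZLR they numbered 367, and 241 with no minimum mean, 1169 with quality weights, 945 at an adjusted p under 0.2 and 225 to 379 with 1 library left out. Under BT2 they numbered 0, and 1 with a pseudocount of 10, with quality weights or at an adjusted p under 0.2, 2 without libraries under 1 M reads and 0 to 2 with 1 library left out. The causes were not tested.

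Same-numbered replicates did not deviate together in every pair (correlations of -0.28 to 0.24), and 1 of 10, 2 of 8, 2 of 8 and 4 of 8 libraries correlated best with their own number in the 4 comparisons. With a replicate block the genes called numbered 56, 145, 221 and 0 and the markers called 0, 0, 1 and 0, and Pdgfrb in WT/Floxed mice had a log2 fold change of 0.23 (adjusted p = 0.809, limma).

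The score difference between groups over the 10 markers was 0.16 in WT/Floxed, 0.40 in L-Sirt1 KO, 0.08 in ZFR against ZLR and -0.19 under BT2. With 4 genes it was 0.34, 0.83, 2.20 and 1.29, and with 1 library left out it ran from 0.07 to 0.26, 0.16 to 0.58, -0.18 to 0.56 and -0.49 to 0.18. With the 8-base match 0 markers held a miR-29 site. Depth limits the rat values, where 1 read was worth up to 10.5 normalized counts.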
